A study of Mus musculus with 3 samples.

Results

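Glycolysis and hypoxia response genes were followed through 3 days of development in the male gonads of mouse embryos that lack Cyp26b1. The group was a list of 36 genes, comprising glucose and lactate carriers, glycolytic enzymes, enzymes that set the fate of pyruvate, oxygen sensors and textbook targets of hypoxia inducible factor. Of the 36 genes, 34 were matched to 50 probes, out of 16563 genes named in the series, and Gapdh and Ndrg1 were matched to no probe. The study measured total RNA on single-colour Agilent arrays at E12.5, E13.5 and E14.5, with 2 arrays a stage. Each embryo group had the genotype Cyp26b1-/- on the MCH mouse line, so every array carried the deletion and the comparisons here are between stages. Arrays of another genotype were not analysed here. The series describes its duplicates as biological, and whether gonads were pooled is not given in the sources used here.

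Glycolysis splits glucose into pyruvate in the cytosol, and lactate dehydrogenase returns the cofactor that lets the pathway run without oxygen. When oxygen is scarce, HIF1A escapes hydroxylation by the EGLN prolyl hydroxylases and, with its partner ARNT, binds a short core motif near genes of glucose transport, glycolysis and lactate export. Cyp26b1 encodes an enzyme that degrades retinoic acid, and in the fetal testis this keeps male germ cells from entering meiosis. Many steps of glycolysis are run by several isozymes, which differ between tissues in their abundance and control.

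Values are log2 signals relative to the 75th percentile of the same array, so a difference of 1 between stages is a doubling or a halving of the signal. Levels are not set against each other between genes, because probes differ in brightness. A gene was called where limma's moderated test gave an adjusted p under 0.05 over the 13454 genes tested. Errors are standard errors of a difference between means of 2 arrays. All 34 measured genes lay well above background on all 6 arrays, and no spot was saturated. The E12.5 arrays were on one slide and the E13.5 and E14.5 arrays on another, so stage and slide cannot be told apart in any comparison with E12.5, while E13.5 and E14.5 shared theirs. The only Cyp26b1 probe gave 4.96 and 4.73 on the E12.5 arrays, 4.29 and 4.20 on those of E13.5, and 4.27 and 3.83 on those of E14.5. Where it lies relative to the deleted part is not given in the sources used here, so it checks nothing about the genotype.

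All 14 defining markers of the cell types a gonad sample could hold lay well above background on all 6 arrays, among them those of germ, Sertoli, Leydig and interstitial cells and those of mesonephros, blood, vessels and macrophages. Summed signals of the marker lists, with the array's 75th percentile set to 1, moved with stage. The 5 measured of 6 fetal Leydig markers summed to 9.32 to 10.5, 51.2 to 56.5 and 84.3 to 107 at the successive stages. The 8 erythroid markers summed to 215 to 265, 184 to 217 and 163 to 188, a sum that holds Hba-a1, which rose by 0.49 from E12.5 to E14.5, while 5 markers fell, as far as -4.15 for Hbb-bh1, with a median of -1.80. The 6 mesonephric markers summed to 2.49 to 2.55 at E12.5 and 0.73 to 1.13 at E14.5. Of these, limma called 3 lower (50%, Calb1, Emx2 and Lhx1) and 1 higher (16.7%, Pax2). Over all genes, 21.2% were lower and 25.6% higher in this comparison. The 6 macrophage markers summed to 2.05 to 2.42 at E12.5 and 4.20 to 4.73 at E14.5. Sums of the 7 germ cell markers were 39.7 to 50.4, 65.4 to 67.9 and 46.2 to 63.8 at the successive stages, and from E12.5 to E14.5 Ddx4 and Dazl rose and Dnd1 and Sall4 fell. The 8 Sertoli markers summed to 71.9 to 78.0 at E12.5 and 65.7 to 70.8 at E14.5, the 6 endothelial markers to 12.8 to 14.5 and 10.8 to 11.1, and the 4 interstitial markers to 33.6 to 34.7 and 29.8 to 31.0. The 9 measured of 10 handling stress genes summed to 12.8 to 14.4 at E12.5 and 14.8 to 15.3 at E14.5. Of these, limma called 4 higher at E14.5 (Atf3, Fos, Jun and, by 2.95, Hspa1a) and 3 lower (Dusp1, Fosb and Ier2). These are 44.4% and 33.3%, beside 25.6% and 21.2% of all genes. In whole gonads, fewer cells of a type and less RNA per cell cannot be told apart, and the part of these cell types in the stage differences was not tested.

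From E12.5 to E14.5, 12 of the 34 genes fell and 3 rose. The genes that fell were Hif1a, its hydroxylase Egln3, Pdk1, Pfkfb3, Pfkp, Pgk1, Pgam1, Ldhb, the carriers Slc2a3 and Slc16a1, P4ha1 and Car9. The genes that rose were Eno2, Aldoc and Slc16a3. Pfkp is called from its brightest probe, and the mean of its probes has the other sign. Several of the other calls were lost under other settings, as given with each gene below. Over all genes tested, 21.2% fell and 25.6% rose in this comparison (46.7% in either direction), against 35.3% and 8.82% of the listed genes. The median difference was -0.24 over the 34 genes and 0.03 over all genes. Arrays of the stages did not overlap for 16 genes that were lower and 5 that were higher at E14.5, against a background of 35.9% and 39.7% of all genes. With the array median in place of the 75th percentile, the median over all genes moved to -0.12 and that of the 34 genes to -0.39, with 3 genes called higher and 14 lower. The share of higher genes among all genes called was 54.7% with the 75th percentile and 41.1% with the median.

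Fewer genes were called between neighbouring stages. Between E12.5 and E13.5, 6 genes fell (Hif1a, Pfkfb3, Pfkp, Pdk1, Adm and Car9) and Eno2 rose, where 14.0% of all genes fell and 18.0% rose (32.0% in either direction). The median was -0.18 over the 34 genes and 0.04 over all genes. Arrays did not overlap for 17 lower and 9 higher genes, beside 32.4% and 39.5% of all genes. Between E13.5 and E14.5, limma called none of the 34, and 6 had an unadjusted p under 0.05, while 0.0520% of all genes were called (0.0446% higher, 0.00743% lower) and 18.4% had such a p. The median was -0.06, with 8 genes lower and 5 higher without overlap of arrays (28.4% and 27.3% of all genes).

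**Figure D1:**
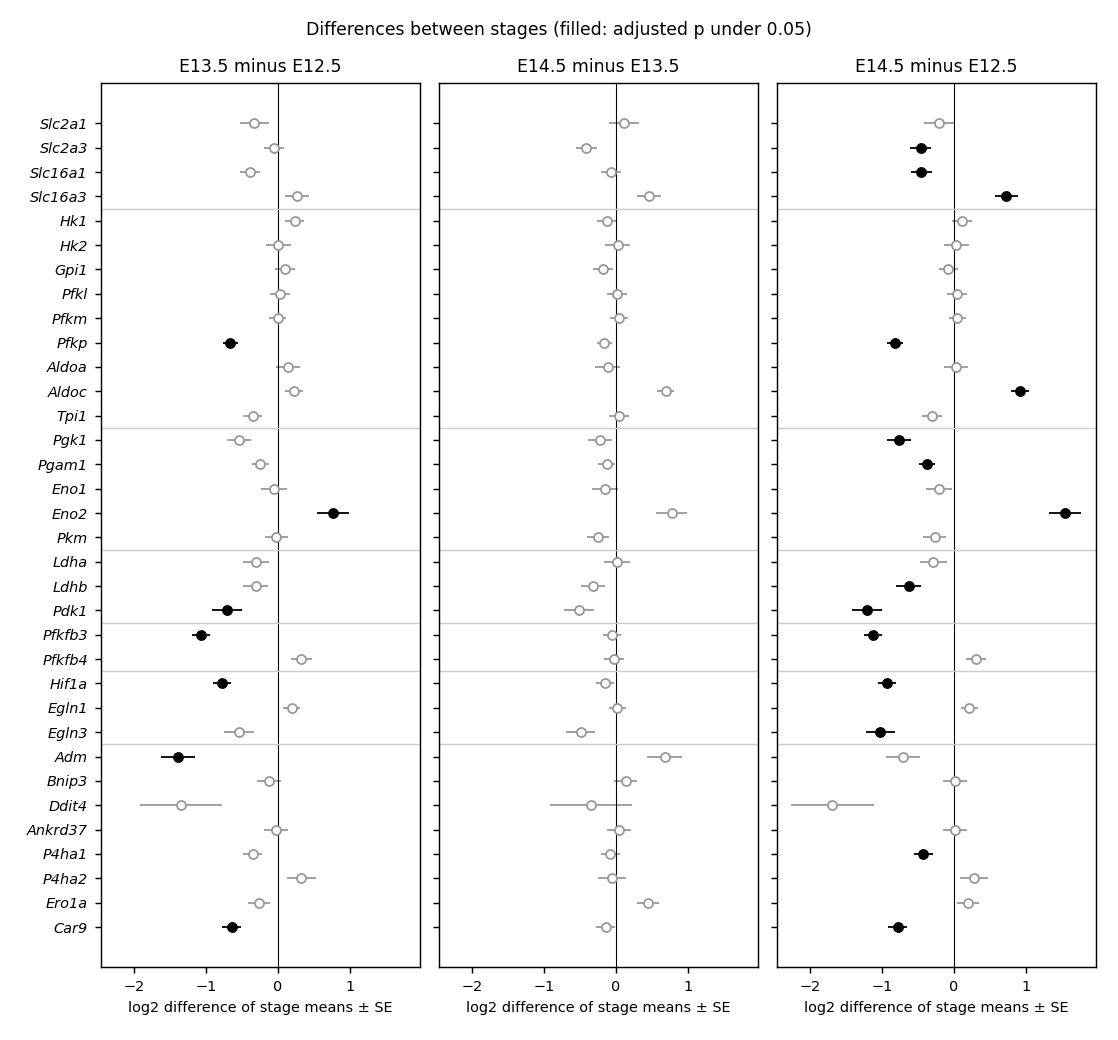
Log2 difference of stage means with its SE (n = 2 arrays a stage) for the 34 measured genes, in the 3 comparisons, with filled points where limma's adjusted p was under 0.05. Against E12.5, 12 genes were called lower and 3 higher at E14.5 (Pfkp is called from its brightest probe, and the mean of its probes has the other sign), and none was called between E13.5 and E14.5.

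**Figure D2:**
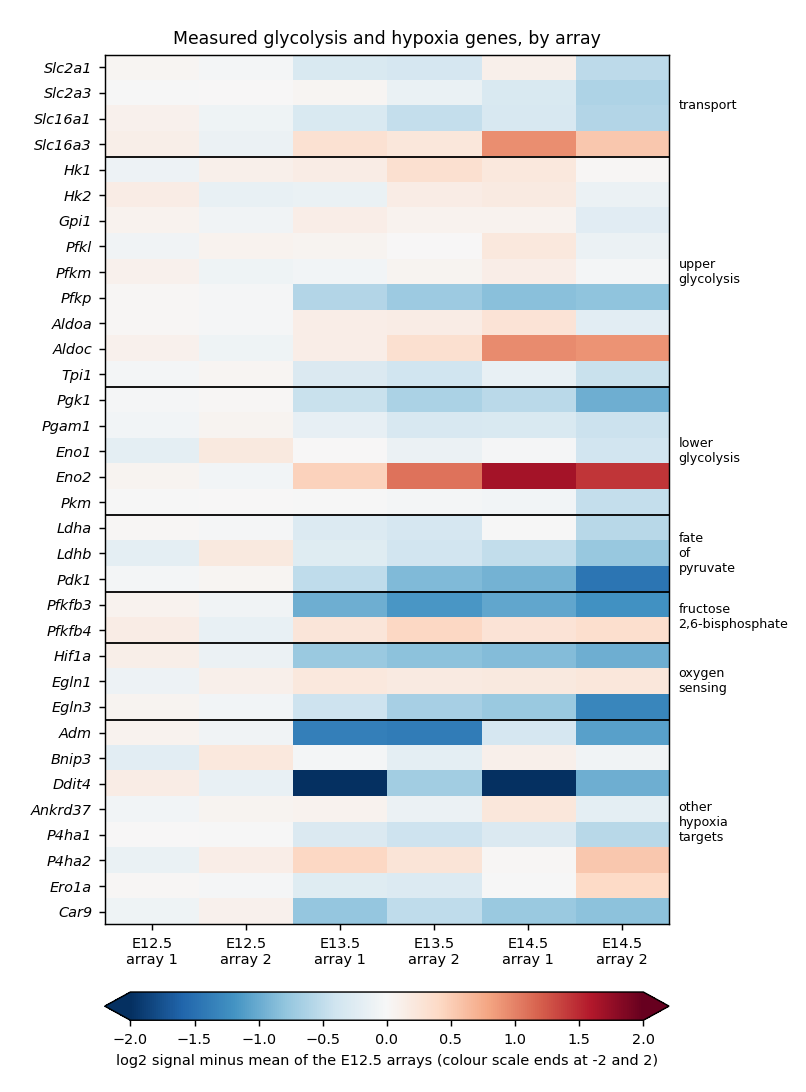
Colour gives each array's log2 signal minus the mean of the E12.5 arrays for the 34 measured genes, ordered by role, on a scale that ends at -2 and 2. Eno2, Aldoc and Slc16a3 are high on both E14.5 arrays, and the lower signals of the second E14.5 array are seen in most rows.

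Promoters are shown for some of the genes called between E12.5 and E14.5, each with 1 annotated start. HIF binds the core motif ACGTG and, with the same core after another first base, GCGTG. Pdk1, Pfkfb3 and Aldoc, with 2 starts each, are not shown. The fallers shown all hold ACGTG, while Pdk1, Pfkp and Ldhb, which also fell, held none. Both motifs were searched on either strand in the 250 bases before each start in RefSeq's table for GRCm38.p6, and overlapping matches were merged. Capitals mark the letters of a match. The first sequences are of genes that fell from E12.5 to E14.5 (Hif1a, Egln3, Car9, Pgk1), and the last are of genes that rose (Slc16a3, Eno2).
Hif1a: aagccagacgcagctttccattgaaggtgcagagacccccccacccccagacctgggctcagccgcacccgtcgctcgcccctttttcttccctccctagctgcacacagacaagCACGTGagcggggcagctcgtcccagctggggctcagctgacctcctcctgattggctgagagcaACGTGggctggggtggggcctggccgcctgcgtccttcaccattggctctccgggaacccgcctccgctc
Egln3: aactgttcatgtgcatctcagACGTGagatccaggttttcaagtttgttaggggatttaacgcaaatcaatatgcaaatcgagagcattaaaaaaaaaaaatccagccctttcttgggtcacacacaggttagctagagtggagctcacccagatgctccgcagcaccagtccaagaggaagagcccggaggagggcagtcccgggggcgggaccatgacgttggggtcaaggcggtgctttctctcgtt
Car9: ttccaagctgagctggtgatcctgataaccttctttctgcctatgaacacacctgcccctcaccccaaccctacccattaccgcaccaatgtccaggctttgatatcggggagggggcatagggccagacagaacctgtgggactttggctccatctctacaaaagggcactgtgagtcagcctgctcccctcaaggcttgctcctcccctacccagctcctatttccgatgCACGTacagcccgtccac
Pgk1: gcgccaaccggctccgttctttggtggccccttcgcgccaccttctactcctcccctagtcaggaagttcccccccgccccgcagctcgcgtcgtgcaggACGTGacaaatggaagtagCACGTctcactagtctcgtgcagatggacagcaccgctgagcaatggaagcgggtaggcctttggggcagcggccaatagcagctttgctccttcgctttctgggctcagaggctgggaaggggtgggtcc
Slc16a3: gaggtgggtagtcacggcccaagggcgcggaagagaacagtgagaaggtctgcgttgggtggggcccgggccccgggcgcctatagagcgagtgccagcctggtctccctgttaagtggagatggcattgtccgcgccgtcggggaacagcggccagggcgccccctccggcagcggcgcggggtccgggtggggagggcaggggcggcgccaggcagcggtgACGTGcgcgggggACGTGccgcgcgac
Eno2: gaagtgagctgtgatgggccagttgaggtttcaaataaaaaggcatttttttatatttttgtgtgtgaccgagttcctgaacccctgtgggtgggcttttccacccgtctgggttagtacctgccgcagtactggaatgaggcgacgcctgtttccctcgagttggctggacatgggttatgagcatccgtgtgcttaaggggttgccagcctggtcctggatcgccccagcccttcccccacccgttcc
The windows are Hif1a at chr12:73907617-73907866 on the plus strand, Egln3 at chr12:54203875-54204124 on the minus strand, Car9 at chr4:43506776-43507025 on the plus strand, Pgk1 at chrX:106186850-106187099 on the plus strand, Slc16a3 at chr11:120948817-120949066 on the plus strand and Eno2 at chr6:124769674-124769923 on the minus strand. Positions count back from the start to the first printed letter of each ACGTG match, on either strand. They were -135 and -70 in Hif1a, -229 in Egln3, -18 in Car9, -150 and -131 in Pgk1 and -27 and -14 in Slc16a3. At -18 in Car9 and -131 in Pgk1 the printed letters are CACGT, which is ACGTG on the other strand. At -135 in Hif1a matches on both strands are merged as CACGTG. The Eno2 window held neither motif, which says only that these letters are not in it.

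Of the 34 listed genes with an entry in the promoter table, 21 (61.8%) held ACGTG before at least 1 start, against 23.9% of the 10721 tested genes with an entry and 18.5% of all 27025 genes of the table. GCGTG was held by 23 of them (67.6%), against 47.1% and 30.9%. Their windows also had more G and C, with a median of 62.8% against 58.8% and 52.4%, and the part of this in the shares was not tested. ACGTG was found before 8 of 11 genes that fell from E12.5 to E14.5, 1 of 3 that rose, and 12 of 19 that were not called. Slc2a3 and Ndrg1 were without an entry. The list was chosen to hold textbook targets of hypoxia inducible factor, so its shares of these motifs are no independent test against other genes. A match of these letters is a description of the window and not a binding site.

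Of the 3 oxygen sensing genes, Hif1a and Egln3 fell from E12.5 to E14.5 (66.7%, beside 21.2% of all genes) and Egln1 was not called. Hif1a, the oxygen-labile subunit of the hypoxia inducible factor, gave 2.46 and 2.21 on the E12.5 arrays, 1.59 and 1.52 on those of E13.5, and 1.47 and 1.36 on those of E14.5. Both E12.5 arrays lay above all 4 later arrays. Hif1a fell by 0.78 ± 0.13 to E13.5 (limma, adjusted p = 0.00914, 1.71-fold) and by 0.92 ± 0.13 to E14.5 (adjusted p = 0.00317, 1.90-fold). The first of these calls was lost without the second E13.5 array (adjusted p = 0.0592). Egln3, a prolyl hydroxylase that is itself a HIF target, gave -0.25 and -0.35, then -0.70 and -0.96, then -1.04 and -1.60. Its arrays did not overlap between any stages, and it fell by 1.02 ± 0.20 from E12.5 to E14.5 (limma, adjusted p = 0.0101, 2.03-fold). Egln1, the main prolyl hydroxylase of HIF1A under normal oxygen, stayed between -0.02 and 0.32 and was not called (0.21 ± 0.12, adjusted p = 0.174). The change of Egln3 was lower than that of Egln1 by 1.24 ± 0.22 (limma on the difference within arrays, adjusted p = 0.00742).

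Of 11 other genes of the HIF pathway, 4 rose (36.4%) and 1 fell (9.09%) from E12.5 to E14.5, beside 25.6% and 21.2% of all genes. Cited2, which competes with HIF1A for its coactivators, rose by 0.81 ± 0.12 (limma, adjusted p = 0.00414). Egln2, a further prolyl hydroxylase, rose by 0.74 ± 0.10 (adjusted p = 0.0035). Arnt, the HIF partner, rose by 0.55 ± 0.13 (adjusted p = 0.0173) and its paralog Arnt2 by 0.39 ± 0.10 (adjusted p = 0.0267). Hif3a changed by -0.35 ± 0.10 (adjusted p = 0.0315), and its other probe by -0.10.

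Of the regulators of phosphofructokinase, Pfkfb3 fell at both later stages and Pfkfb4 was not called. Pfkfb3, which makes the allosteric activator of phosphofructokinase, gave 1.86 and 1.71 on the E12.5 arrays, 0.81 and 0.62 on those of E13.5, and 0.75 and 0.58 on those of E14.5. The E12.5 arrays stood alone, and the 4 later arrays overlapped. Pfkfb3 fell by 1.07 ± 0.13 to E13.5 (limma, adjusted p = 0.00442, 2.10-fold) and by 1.12 ± 0.13 to E14.5 (adjusted p = 0.00193, 2.17-fold). A second Pfkfb3 probe changed by -0.52 ± 0.18 to E14.5 and missed the threshold (adjusted p = 0.0515 in the fit over 19196 single probes). In that fit 33.3% of probes were called at E13.5 (17.8% higher, 15.5% lower) and 46.7% at E14.5 (24.2% higher, 22.6% lower), both against E12.5. Its paralog Pfkfb4 gave 1.16 and 0.87, then 1.26 and 1.44, then 1.29 and 1.35, and was not called (0.30 ± 0.14, adjusted p = 0.123). The paralogs differed in their change by 1.42 ± 0.16 to E14.5 (limma, adjusted p = 0.00196) and by 1.40 ± 0.16 to E13.5 (adjusted p = 0.00418).

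Of the 3 genes for the fate of pyruvate, 2 fell from E12.5 to E14.5 (66.7%), where 21.2% of all genes fell and 25.6% rose. Pdk1, the kinase that shuts pyruvate out of the citric acid cycle, gave 0.56 and 0.65, then 0.09 and -0.28, then -0.35 and -0.86. Each stage lay below the one before it without overlap. Pdk1 fell by 1.21 ± 0.21 from E12.5 to E14.5 (limma, adjusted p = 0.00641, 2.31-fold). Its fall to E13.5 (0.70 ± 0.21, adjusted p = 0.0489) was lost when any of the 4 arrays compared was left out (adjusted p = 0.0668 to 0.212). Ldhb, the lactate dehydrogenase subunit that favours lactate use, gave 6.94 and 7.33, then 6.89 and 6.75, then 6.65 and 6.37. It fell by 0.62 ± 0.17 from E12.5 to E14.5 (limma, adjusted p = 0.0293, 1.54-fold), and missed the threshold without a background filter (adjusted p = 0.058). This call was lost when the second array of E12.5 (adjusted p = 0.113) or of E14.5 (0.131) was left out. Ldha, the subunit that favours lactate production, gave 5.33 and 5.29, then 5.03 and 4.98, then 5.29 and 4.75, so the first E14.5 array was level with the second E12.5 array. Its brightest probe was not called at E14.5 (-0.29 ± 0.18, adjusted p = 0.245), while its other probe fell by 0.87 ± 0.20 (single probes, adjusted p = 0.0152), and already by 0.81 ± 0.20 to E13.5 (adjusted p = 0.0269).

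Of the 9 upper enzymes of glycolysis, Pfkp fell by its brightest probe and Aldoc rose from E12.5 to E14.5 (11.1% each way). The median difference over the 9 enzymes was 0.04. Of all genes, 21.2% fell and 25.6% rose. Pfkp, the platelet type phosphofructokinase, gave -0.87 and -0.93, then -1.48 and -1.63, then -1.73 and -1.70. Its brightest probe fell by 0.66 ± 0.11 to E13.5 (limma, adjusted p = 0.00924, 1.58-fold) and by 0.82 ± 0.11 to E14.5 (adjusted p = 0.00285, 1.76-fold), the first of these lost without the second E13.5 array (0.0647). A dim second Pfkp probe was not well above background on either E12.5 array and was at least 2.11-fold higher at E14.5 (adjusted p = 0.00584 over single probes). With the mean of all its probes, Pfkp turned to 0.05 (adjusted p = 0.765) for the earlier comparison and 0.13 (0.383) for the later, so its direction rests on the brightest probe. Pfkl and Pfkm, the liver and muscle types, stayed within 2.17 to 2.50 and 2.32 to 2.53 and were not called (0.05 ± 0.14 and 0.05 ± 0.12, adjusted p = 0.802 and 0.763). The change of Pfkp to E14.5 was lower than that of Pfkl by 0.86 ± 0.16 (limma, adjusted p = 0.00743).

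Aldoc, the brain type aldolase, gave -0.76 and -0.94, then -0.71 and -0.53, then 0.09 and 0.05. Both E14.5 arrays lay above all 4 earlier arrays. Aldoc rose by 0.92 ± 0.12 from E12.5 to E14.5 (limma, adjusted p = 0.00288, 1.89-fold), and its 0.69 ± 0.12 from E13.5 to E14.5 missed the threshold (adjusted p = 0.0952). Aldoa, the muscle type and general aldolase, ranged from 6.82 to 7.31 and was not called (0.03 ± 0.17, adjusted p = 0.892). The paralogs differed in their change by 0.89 ± 0.17 (limma, adjusted p = 0.00938). Hexokinases, which trap glucose in the cell, ranged from -1.22 to -0.80 (Hk1) and from 2.61 to 2.95 (Hk2). They were not called by their brightest probes (Hk1 0.11 ± 0.13, Hk2 0.04 ± 0.18, adjusted p = 0.524 and 0.881), although 1 of 5 Hk1 probes fell by 0.41 ± 0.11 (single probes, adjusted p = 0.0246). Gpi1, which turns glucose phosphate into fructose phosphate, ranged from 5.50 to 5.85 (-0.07 ± 0.14, adjusted p = 0.676). Tpi1, which interconverts the triose phosphates, ranged from 4.51 to 4.99 (-0.30 ± 0.13, adjusted p = 0.109).

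In lower glycolysis, Pgk1 and Pgam1 fell and Eno2 rose from E12.5 to E14.5, of 5 enzymes measured. These are 40% and 20%, beside 21.2% and 25.6% of all genes. Pgk1, which makes the first ATP of the pathway, gave 5.24 and 5.29, then 4.83 and 4.64, then 4.72 and 4.30. The E12.5 arrays lay above the rest, and the later stages overlapped. Pgk1 fell by 0.76 ± 0.17 from E12.5 to E14.5 (limma, adjusted p = 0.0138, 1.69-fold), a call lost without the first (adjusted p = 0.051) or second E12.5 array (0.0604). Pgam1, the phosphoglycerate mutase that acts next, gave 5.81 and 5.92, then 5.70 and 5.55, then 5.55 and 5.44, and fell by 0.37 ± 0.12 (limma, adjusted p = 0.0423). This call was lost when any single array was left out (adjusted p = 0.0686 to 0.165) and with quantile normalization (0.111). Eno1, the general enolase, ranged from 1.33 to 1.91 (-0.21 ± 0.18, adjusted p = 0.392), and Pkm, which makes pyruvate, from 3.35 to 3.84 (-0.27 ± 0.16, adjusted p = 0.202).

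Eno2, the neuronal enolase, had the highest rise of the list. It gave -4.04 and -4.15 on the E12.5 arrays, -3.64 and -3.00 on those of E13.5, and -2.44 and -2.66 on those of E14.5. The stages did not overlap, and E13.5 lay between the others. Eno2 rose by 1.55 ± 0.22 from E12.5 to E14.5 (limma, adjusted p = 0.0036, 2.93-fold), and a second probe rose by 1.81 ± 0.22 (single probes, adjusted p = 0.00223). Its rise to E13.5 (0.77 ± 0.22, adjusted p = 0.0433) was lost when any array other than the first of E13.5 was left out (adjusted p = 0.0591 to 0.146), and the difference was 0.45 with the second E13.5 array left out. It was also lost without a background filter (adjusted p = 0.083) and with unnamed probes among the tests (0.0601). The change of Eno2 was greater than that of Eno1 by 1.75 ± 0.28 (limma, adjusted p = 0.00525).

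**Figure D3:**
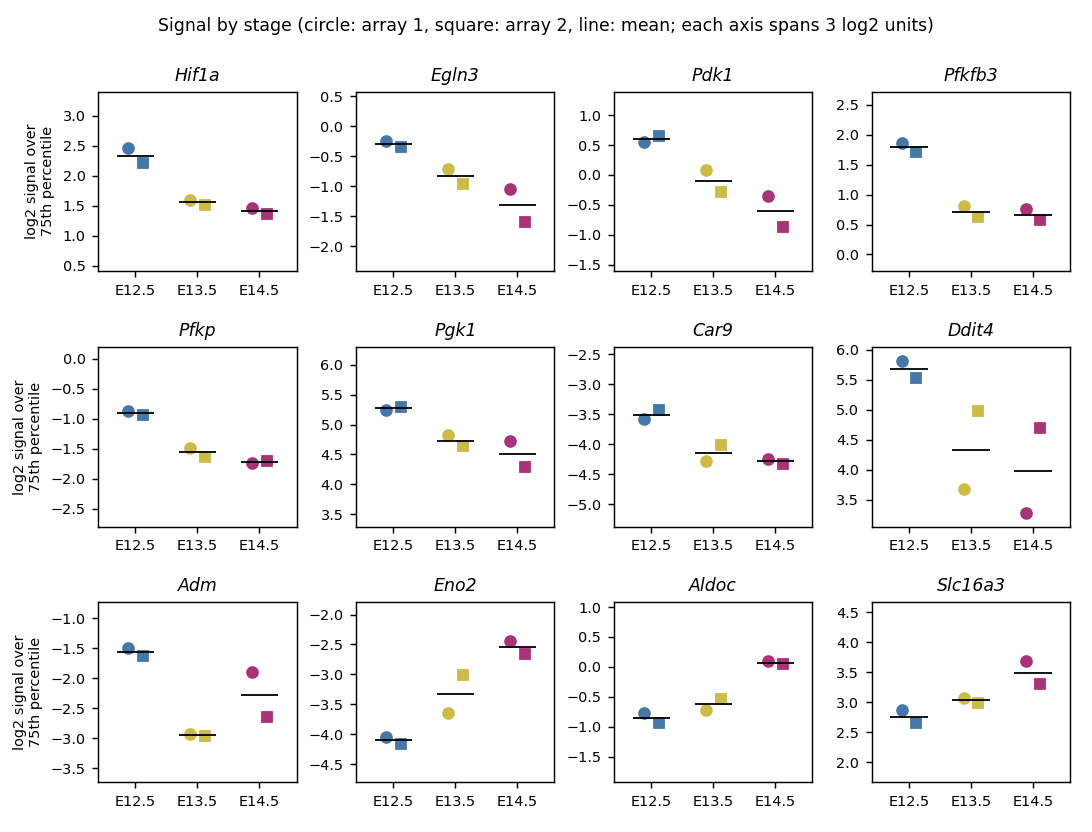
Log2 signal over the array's 75th percentile by stage for 12 genes, with circles for array 1, squares for array 2 and a line for the mean of the 2 arrays, each axis spanning 3 log2 units. Hif1a and Pfkfb3 are lower on all 4 later arrays, Egln3 and Pdk1 lie lower and Eno2 higher at each later stage, and Ddit4 and Adm show wide gaps between duplicates at E14.5.

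Carriers moved in opposite ways at the lactate step. Slc16a3, the lactate exporter and HIF target, gave 2.88 and 2.65, then 3.07 and 2.995, then 3.69 and 3.30. Its stages did not overlap, and it rose by 0.73 ± 0.16 from E12.5 to E14.5 (limma, adjusted p = 0.0149, 1.66-fold), which missed the threshold once the second array of E12.5 (adjusted p = 0.0701) or the first of E14.5 (0.0522) was left out. Slc16a1, the widespread carrier of lactate and pyruvate, gave 2.93 and 2.75, then 2.54 and 2.37, then 2.52 and 2.25. It fell by 0.45 ± 0.14 (limma, adjusted p = 0.0445, 1.37-fold), a call lost when any array other than the first of E14.5 was left out (adjusted p = 0.0666 to 0.189), and its 2 other probes changed by -0.38 and -1.38. The change of Slc16a3 was greater than that of Slc16a1 by 1.18 ± 0.11 to E14.5 (limma, adjusted p = 0.00101) and by 0.65 ± 0.11 to E13.5 (adjusted p = 0.00937). Of the glucose carriers, Slc2a3 gave 1.17 and 1.19, then 1.22 and 1.04, then 0.88 and 0.56, and fell by 0.46 ± 0.14 (limma, adjusted p = 0.0415), also lost when any array other than the first of E14.5 was left out (adjusted p = 0.0622 to 0.172). Slc2a1, the general glucose carrier, ranged from 2.34 to 2.97, with the E14.5 arrays at both ends (-0.21 ± 0.21, adjusted p = 0.439).

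Across 11 pairs of paralogs, taken from the list after the data were seen, the change from E12.5 to E14.5 differed within the pair in 7 (limma, where 46.7% of all rows of that fit were called), and in 4 from E12.5 to E13.5 (32.0%). In each comparison 2 of these pairs hold Pfkp, whose direction rests on its brightest probe, and without Pfkp the counts are 5 and 2 of 9 pairs. No pair was called between E13.5 and E14.5 (0.0520%). The pairs not called at E14.5 were Slc2a3 with Slc2a1 (difference -0.25, adjusted p = 0.185), Hk2 with Hk1 (-0.08, 0.749), Ldhb with Ldha (-0.34, 0.159) and P4ha2 with P4ha1 (0.70, 0.07).

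**Figure D4:**
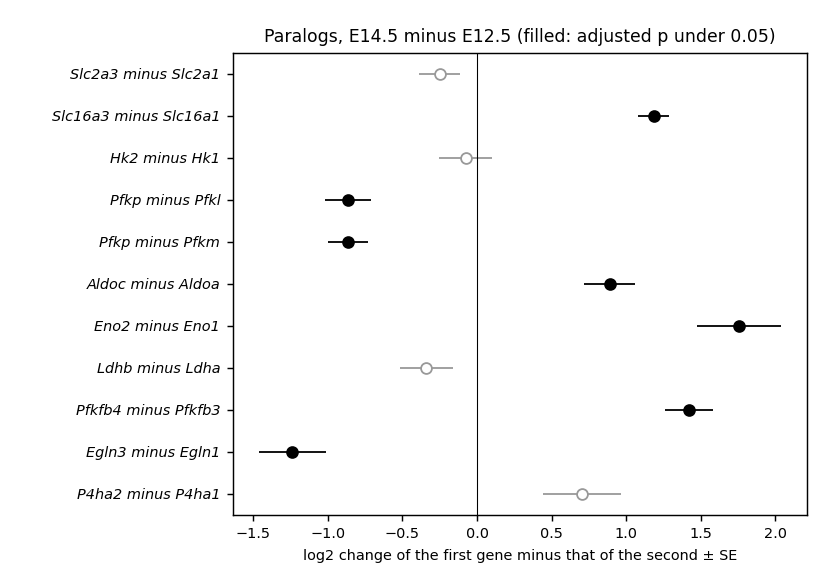
Change from E12.5 to E14.5 of the first gene of each pair minus that of the second, with its SE, and filled points where limma's adjusted p was under 0.05. Slc16a3, Aldoc, Eno2 and Pfkfb4 lie above their paralogs and Pfkp (by its brightest probe) and Egln3 below theirs.

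Of the 8 remaining hypoxia targets measured, Car9 and P4ha1 fell from E12.5 to E14.5 (25%), close to the 21.2% of all genes. None rose, where 25.6% of all genes did. Adm and Car9 fell to E13.5 (25%, beside 14.0% of all genes). Car9, a cell surface carbonic anhydrase, gave -3.59 and -3.43, then -4.28 and -4.02, then -4.25 and -4.32. Both E12.5 arrays lay above the 4 later ones. Car9 fell by 0.64 ± 0.13 to E13.5 (limma, adjusted p = 0.018, 1.56-fold) and by 0.78 ± 0.13 to E14.5 (adjusted p = 0.0062, 1.72-fold). With normexp background correction the differences were -0.11 (adjusted p = 0.562) and -0.15 (0.396), and the earlier call was also lost without the second E12.5 array (0.0703) or the first E13.5 array (0.0863). P4ha1, a collagen prolyl hydroxylase, gave 1.43 and 1.40, then 1.13 and 1.004, then 1.13 and 0.85, and fell by 0.42 ± 0.13 (limma, adjusted p = 0.0402, and 0.067 to 0.17 when any array other than the first of E14.5 was left out). The other P4ha1 probe changed by -0.15 ± 0.12 and was not called (single probes, adjusted p = 0.325). The call was also lost with the mean of all P4ha1 probes (limma, adjusted p = 0.0886) and with normexp correction (0.0689). The paralog P4ha2 ranged from 0.48 to 1.15 and was not called (0.28 ± 0.20, adjusted p = 0.283). Adm, which encodes the vasodilator adrenomedullin, gave -1.50 and -1.62, then -2.93 and -2.96, then -1.89 and -2.64. The E13.5 arrays lay lowest, and Adm fell by 1.39 ± 0.24 to E13.5 (limma, adjusted p = 0.0109, 2.61-fold). Leaving out the first array of E12.5 (adjusted p = 0.0573) or the second of E13.5 (0.0561) ended this call. At E14.5 its -0.71 ± 0.24 missed the threshold (adjusted p = 0.054) and passed without the first E14.5 array (-1.08, adjusted p = 0.00677).

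Ddit4, an inhibitor of mTOR signalling, had the widest spread between duplicates. It gave 5.82 and 5.52 on the E12.5 arrays, 3.67 and 4.98 on those of E13.5, and 3.28 and 4.69 on those of E14.5. All later arrays lay below both E12.5 arrays, and the first array of each later stage was far below the second. The difference of -1.69 ± 0.57 at E14.5 missed the threshold (limma, adjusted p = 0.0539), and passed with normexp correction (-1.77, adjusted p = 0.00693), with median scaling (-1.84, adjusted p = 0.0174) and with the second array of E14.5 left out (-2.40, adjusted p = 0.0301). Bnip3, a mitophagy receptor, ranged from 1.58 to 1.99 (0.02 ± 0.17, adjusted p = 0.94) and Ankrd37 from -0.10 to 0.32 (0.02 ± 0.17, adjusted p = 0.925). Ero1a, an oxidase of the endoplasmic reticulum listed under its older symbol Ero1l, ranged from -0.45 to 0.22 and was not called by its brightest probe (0.20 ± 0.15, adjusted p = 0.335), whereas its other probe fell by 0.47 ± 0.12 (single probes, adjusted p = 0.0226).

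The second E14.5 array was lower than the first for 28 of the 34 genes, with a median gap of -0.28, while 56.7% of all genes were lower with a median of -0.03. At E12.5 19 genes and at E13.5 25 genes were lower on the second array, with medians of -0.04 and -0.06. Gaps at E14.5 ran from -0.75 for Adm to 1.42 for Ddit4. Without the second E14.5 array the median difference of the 34 genes from E12.5 was -0.02, beside 0.05 over all genes. Without the first it was -0.44, beside 0.008 over all genes. The summed signal of all 34 genes was 616 to 639, 542 to 549 and 449 to 550 at the successive stages. The brightest probes, such as those of Aldoa and Ldhb, weigh most in this sum. It therefore does not show how most of the genes moved.

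**Figure D5:**
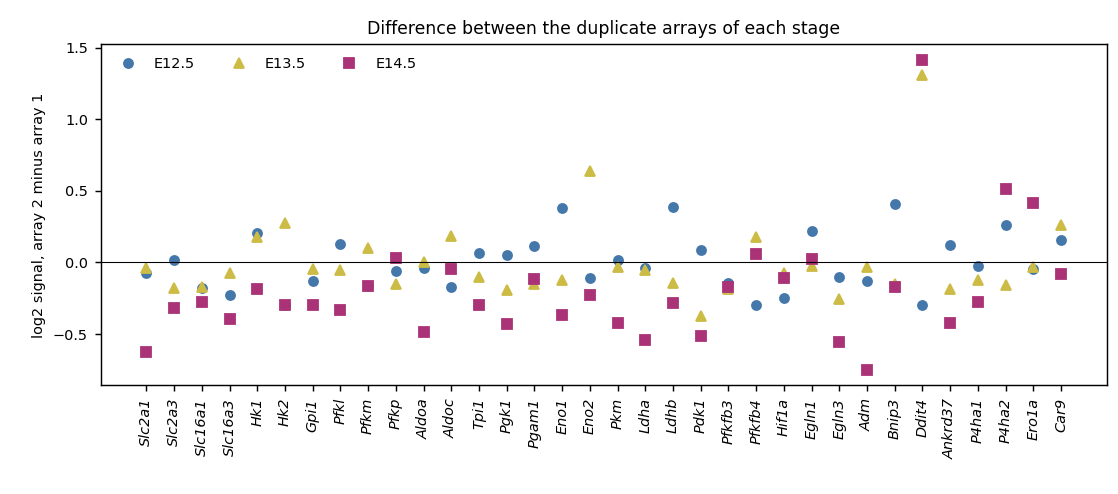
Log2 signal of array 2 minus array 1 within each stage for the 34 measured genes, with circles for E12.5, triangles for E13.5 and squares for E14.5. At E14.5, 28 of 34 squares lie below 0, from -0.75 for Adm up to 1.42 for Ddit4.

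Further genes around the pathway, from lists chosen with the members, moved both ways between E12.5 and E14.5. Of 21 other glycolytic genes, 6 rose (28.6%) and 5 fell (23.8%), close to the 25.6% and 21.2% of all genes. Tigar, a phosphatase that lowers the phosphofructokinase activator, fell by 1.91 ± 0.14 by its brightest probe (limma, adjusted p = 0.000677) and to a lesser extent by its other 2 probes, the smallest at -0.31. Hk3 rose by 1.09 ± 0.25, Slc2a10 rose by 0.73 ± 0.16 and Pgm2 fell by 0.87 ± 0.11 (limma, adjusted p = 0.0164, 0.013 and 0.00288). Adpgk fell by 0.61 ± 0.11 and Bpgm by 0.61 ± 0.14 (limma, adjusted p = 0.00749 and 0.0151). Slc2a2, counted among the fallers, was not well above background on any array of either stage, so no fall is read from it. Of 15 measured genes of pyruvate and lactate, 3 rose and 3 fell (20% each way). Ldhd rose by 1.02 ± 0.12 and Pdk4, a paralog of Pdk1, fell by 0.79 ± 0.18 (limma, adjusted p = 0.00209 and 0.0171). The other two that rose were Mpc2, a subunit of the mitochondrial pyruvate carrier (0.48 ± 0.15, adjusted p = 0.0388), and Pdhx (0.34 ± 0.11, 0.0478), whose other probe was at -0.51. The other two that fell were the pyruvate dehydrogenase subunits Dld (-0.52 ± 0.11, adjusted p = 0.0135) and Pdha1 (-0.47 ± 0.13, 0.0304).

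Of 8 genes of gluconeogenesis, 5 were called higher (62.5%) and 1 lower (12.5%) from E12.5 to E14.5, with a median of 1.05. Of all genes, 25.6% rose and 21.2% fell, with a median of 0.03. Pck1, its committed enzyme, rose by 1.94 ± 0.20 (limma, adjusted p = 0.00146, 3.82-fold), and Fbp1, which reverses the phosphofructokinase step, by 1.33 ± 0.15 (adjusted p = 0.00186). Pcx, the entry enzyme, rose by 1.23 ± 0.11 (adjusted p = 0.000911). Fbp2, the fifth, was well above background on only 1 of the 2 E12.5 arrays, so no size is read from its call. G6pc2 fell by 0.71 ± 0.18 and G6pc3 rose by 0.88 ± 0.10 (limma, adjusted p = 0.0211 and 0.00192). Of 29 other hypoxia targets measured, 6 rose (20.7%) and 7 fell (24.1%), close to the shares of all genes, with a median of 0.002. Lox, which cross-links collagen, rose by 1.99 ± 0.25 (limma, adjusted p = 0.00256). Car12, a relative of Car9, fell by 1.92 ± 0.11 (adjusted p = 0.000498), with its other probe at -0.52. Bhlhe41 fell by 1.31 ± 0.21 (adjusted p = 0.00545), with its other probe at -0.18, and Stc2 fell by 1.01 ± 0.14 (adjusted p = 0.00352).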

How the data were processed

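Male Cyp26b1-/- gonads were measured on Agilent 1-colour arrays, 2 for each of 3 stages. The authors scanned the arrays and extracted spot intensities with Agilent Feature Extraction 9.5, per the submitters' processing notes (9.5.3.1 per the file headers). The deposited processed signal is a background-subtracted intensity, and the flags for background, saturation and outliers came with it. The authors also deposited a table with 1 ratio per stage, with medians of 0.963, 1.04 and 1.01. Its centring and reference stay unknown, its log2 stage differences correlated with those of the scanner values across genes (r = 0.997 to 0.999), and it served as an alternative for medians.

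Here each array's log2 intensity was set relative to its 75th percentile. Of 41153 probes on all arrays, 23448 were named through RefSeq accessions. 2904 probes carried different accessions on the slides, and 89 that pointed to different genes were left unnamed. The brightest probe stood for each of the 5481 genes with several. Genes whose 2 arrays were both well above background in any stage were fitted with limma 3.58.1 (lmFit, eBayes, 3 residual and 2.97 prior degrees of freedom; R 4.3.3) and adjusted by Benjamini-Hochberg. The fit was tested on simulated data. Single probes and paralog differences were fitted likewise, the latter added after the data were seen. The number of arrays limits the precision. Where nothing says that samples came from separate animals, p-values measure only the spread between these samples.

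All listed genes are named. Of each further list, up to 4 called genes with the largest difference from E12.5 to E14.5 are named, and any gene that makes up a count of 5 or fewer. The members and lists were chosen with earlier results of these data known. Alternatives covered background correction (normexp, offset 50), scaling, filter, probes of a gene, variance prior, family of tests, replicate block, arrays in the fit, a 2-fold demand and each array left out. The slide as a block could not be fitted for comparisons with E12.5.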

Additional observations from a re-analysis of the deposited data

How the results depend on the processing

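Settings moved the counts of called genes. Of the results called in either setting, only those of Pfkp changed sign. Genes not called in either setting were left out of this, and some changed sign, such as Gpi1 and Bnip3 at E14.5 against E12.5. With single arrays left out, these ran from -0.22 to 0.07 and from -0.19 to 0.22. For E13.5 against E12.5, the count of higher genes went from 1 to 0 without a background filter, with unnamed probes in the family, with the replicate block, with only the 2 stages compared and with a 2-fold demand (0 to 1 with single arrays left out). The count of lower genes went from 6 to 12 with normexp correction, 10 with a trend and robust prior and 2 with a 2-fold demand (2 to 8 with single arrays left out). For E14.5 against E13.5, limma called 1 gene higher, Aldoc, with normexp correction and with the trend and robust prior. For E14.5 against E12.5, the 3 higher genes became 1 with a 2-fold demand (2 to 3 with single arrays left out). The 12 lower genes became 7 without a filter and 3 with a 2-fold demand (6 to 15 with single arrays left out). Leaving out single arrays moved the median of the 34 genes from -0.26 to -0.13 at E13.5 and from -0.44 to -0.018 at E14.5, both against E12.5. Pfkp reversed with the mean of all its probes, to 0.049 in the earlier and 0.13 in the later comparison with E12.5, its second probe having the other sign.

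The array numbers were not treated as pairs in the main fit. Duplicate differences correlated at -0.04 between E12.5 and E13.5, -0.06 between E12.5 and E14.5, and 0.23 between E13.5 and E14.5. These values cannot show whether the numbers share an order. With the replicate block, 3 genes were higher and 12 lower from E12.5 to E14.5, and 0 higher and 6 lower from E12.5 to E13.5. The calls differed, since to E14.5 Ldhb (adjusted p = 0.0533) and Pgam1 (0.0625) lost theirs and Adm (0.0473) and Ddit4 (0.0381) gained one, and to E13.5 Eno2 lost its call (0.0707). Over all genes, 7 were called between E13.5 and E14.5, but 397 with normexp correction, 319 with the trend and robust prior, 94 with median scaling, 1 with the replicate block, and 0 to 42 with single arrays left out. The 4304 genes called at E13.5 against E12.5 became 1393 to 3961, and the 6284 at E14.5 became 3927 to 5441, with single arrays left out. Calls kept under every setting other than the 2-fold demand were Pfkfb3 at E13.5, and Aldoc, Eno2, Pdk1, Pfkfb3, Hif1a and Egln3 at E14.5. Over the member results and all alternatives other than the 2-fold demand, 73 lost a call, among them the 2 reversed Pfkp results, and 41 gained one, and genes not called in either setting were compared by the call only. Apart from Pfkp, the cause of these moves was not tested.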

Other observations

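Some testis forms of the same enzymes rose. Of 6 paralogs known from male germ cells, 3 were measured and 2 rose from E12.5 to E14.5 (66.7%), where 25.6% of all genes rose. The third, Ldhal6b, changed by -0.31 and was not called. Pdha2, the testis form of a pyruvate dehydrogenase subunit, gave -5.38 and -5.53 on the E12.5 arrays, -3.77 and -2.92 on those of E13.5, and -1.98 and -1.93 on those of E14.5. It rose by 3.50 ± 0.27 (limma, adjusted p = 0.000737, 11.3-fold). Ldhc, the testis lactate dehydrogenase subunit, gave -2.97 and -2.58, then -1.93 and -1.98, then -1.57 and -1.02, and rose by 1.48 ± 0.22 (limma, adjusted p = 0.00405, 2.79-fold). The stages did not overlap for either gene. Of the 7 germ cell markers, Ddx4 rose by 1.05 ± 0.11 (limma, adjusted p = 0.00139) and Dazl by 0.84 ± 0.19 (0.0148, with its other probe at -0.29), while Sall4 fell by 1.21 ± 0.20 (0.00568) and Dnd1 by 0.63 ± 0.17 (0.0288). Their summed signal was 39.7 to 50.4 at E12.5 and 46.2 to 63.8 at E14.5. The part of germ cells in the rises was not tested.

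Of 7 measured genes of the pentose phosphate pathway, which branches from glycolysis, 2 rose (28.6%) and 1 fell (14.3%) from E12.5 to E14.5, where 25.6% of all genes rose and 21.2% fell. Tktl1, a relative of transketolase, gave -4.90 and -4.58 on the E12.5 arrays, -1.99 and -1.37 on those of E13.5, and -0.83 and -0.27 on those of E14.5. It rose by 4.19 ± 0.28 (limma, adjusted p = 0.000609, 18.2-fold). G6pdx, the entry enzyme, rose by 0.39 ± 0.13 (adjusted p = 0.0464) and Rpe fell by 0.44 ± 0.11 (adjusted p = 0.0202).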
